A study of Rattus norvegicus with 4 samples.

Results

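The genes examined here carry fatty acids to oxidation in the liver and turn the product into ketone bodies. The list holds 38 genes, which were chosen by symbol for their known roles in the uptake, activation and storage of fatty acids, the carnitine shuttle, oxidation in mitochondria and in peroxisomes, and ketone body metabolism, together with genes that regulate these steps. Earlier results of these data were known when the list was drawn up, so the shares of the list given below are not independent of them. All 38 were found among the 16992 annotated genes measured, each as 1 row per library, and all 38 had TPM values (a level corrected for transcript length and scaled to the library total) higher than 2 in every library.

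Liver RNA was sequenced from 4 wild type male Wistar rats, 6 weeks old when bought, with 1 rat for each condition. Sevoflurane (4.5%) or desflurane (6%) was inhaled through a nose cone in 50% oxygen for 6 hours, and the control rat of each agent inhaled that same agent only until it lost consciousness, so the controls also carry a short exposure. Food and water were withdrawn before the experiment and all rats were killed at about the same time of day. The 6 hour rats therefore also went longer without food than their controls, and the effect of the agent and that of the longer fast cannot be told apart. With 1 library per condition neither agent has a replicate, no statistical test was made, and each difference below is a difference between individual livers. In such bulk RNA, fewer cells of a type and less RNA per cell cannot be told apart.

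Fatty acids released in fasting are taken up by the hepatocyte, joined to coenzyme A, passed into mitochondria as carnitine esters, and shortened by repeated cycles of dehydrogenation, hydration, a second dehydrogenation and thiolysis. Very long chains are shortened in peroxisomes, and the acetyl-CoA formed in excess leaves the liver as ketone bodies. The nuclear receptor PPARα, which binds DNA together with RXR, switches on many of these genes when fatty acids accumulate, and insulin, malonyl-CoA and the coactivator PGC-1α set the rate of the pathway.

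The libraries corresponded to between 4.47 and 5.40 Gb of aligned sequence, and the annotated genes with TPM values higher than 2 numbered between 9474 and 9695 per library. The lowest average coverage of any of the 38 genes was 3.82 reads per base, for *Acot1*, and that of the other 37 genes was at least 13.8. A gene was called higher or lower when it exceeded 2 TPM in at least the higher of the 2 libraries compared and differed more than 2-fold between them. Over the 9136 genes that exceeded 2 TPM in each of the 4 libraries, the median log2 difference from the own control was 0.05 for sevoflurane and 0.12 for desflurane, a shift to which the differences of single genes should be compared. With median-of-ratios scaling, genes called higher made up 50.1% of all genes called with desflurane, compared with 65.3% in the deposited scale.

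Desflurane for 6 hours was accompanied by higher expression across most of the list. With each agent, the carnitine shuttle had the largest median log2 difference of the steps against the own control, at 0.75 with sevoflurane and 0.87 with desflurane. Against the own control, 10 of the 38 genes were called higher with desflurane, compared with 2.79% of all genes tested. These were *Angptl4*, *Plin2*, *Lpin1*, *Cpt1a*, *Cpt2*, *Acaa2*, *Eci1*, *Pex11a*, *Ech1*, and *Vnn1*. With sevoflurane, only *Cpt1a* was called higher, which is a share of the list close to the 2.23% of all genes. None of the 38 genes was called lower with either agent, compared with 3.3% of all genes for sevoflurane and 1.48% for desflurane. *Cpt1a* was thus the only gene of the list called higher with both agents, which applied to 0.59% of all genes.

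Without regard to size, 34 of the 38 genes were higher than in the own control with desflurane and 28 with sevoflurane, where the share over all genes was 67% and 57.1%. The median log2 change of the list was 0.51 with desflurane and 0.16 with sevoflurane. When counted from the median of all genes, 30 genes were above it with desflurane and 25 with sevoflurane, counts that do not depend on how the libraries are scaled. Both 6 hour libraries were higher than both controls for 26 of the 38 genes, compared with 33.3% of all genes. The same held for 21 genes after median-of-ratios scaling, beside 22.4% of all genes, and for 19 genes in FPKM values, beside 19.5%. Both 6 hour libraries were lower than both controls for *Bdh1* alone in TPM, compared with 13.3% of all genes, for 4 genes after median-of-ratios scaling, beside 22.7%, and for 3 genes in FPKM values, beside 16.0%.

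**Figure D1:**
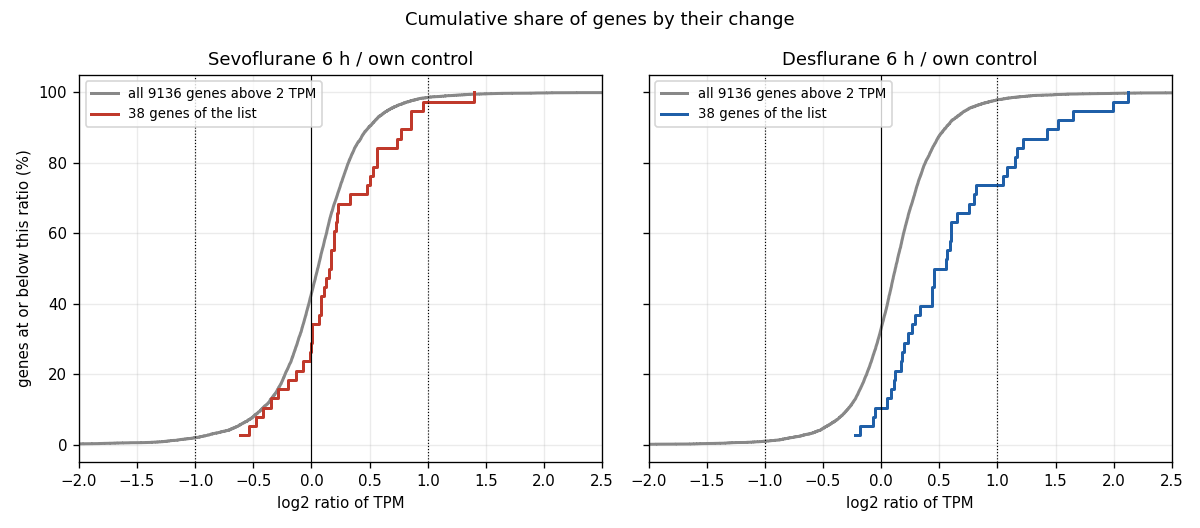
Cumulative share of genes (vertical axis, percent) at or below each log2 ratio of TPM to the own control (horizontal axis) for all 9136 genes with TPM values higher than 2 in every library (gray) and for the 38 genes of the list (red for sevoflurane, blue for desflurane), with dotted lines at 2-fold. The curve of the list lies to the right of that of all genes by 0.11 at the median with sevoflurane and by 0.38 with desflurane.

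The choice of control mattered for the size of these differences. Each 6 hour library was also set against the other agent's control, so the comparisons share libraries and are not independent. Against the other control, desflurane had 6 of the 38 genes called higher (2.84% of all genes) and none called lower (1.58%). Sevoflurane had 5 called higher (2.52% of all genes) and 1 called lower (2.59%) in that comparison. The 6 genes were *Angptl4*, *Plin2*, *Lpin1*, *Cpt1a*, *Ech1*, and *Vnn1*, all of which were also called against the own control. The 5 genes with sevoflurane were *Lpin1*, *Cpt1a*, *Cpt2*, *Ech1*, and *Vnn1*. Between the controls none of the 38 genes was called in either direction, compared with 1.17% of all genes in each direction. However, 27 of the 38 genes were lower in the desflurane control than in the sevoflurane control, as were 55.3% of all genes. The median log2 difference was -0.13 for the list, beside -0.03 for all genes.

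**Figure D2:**
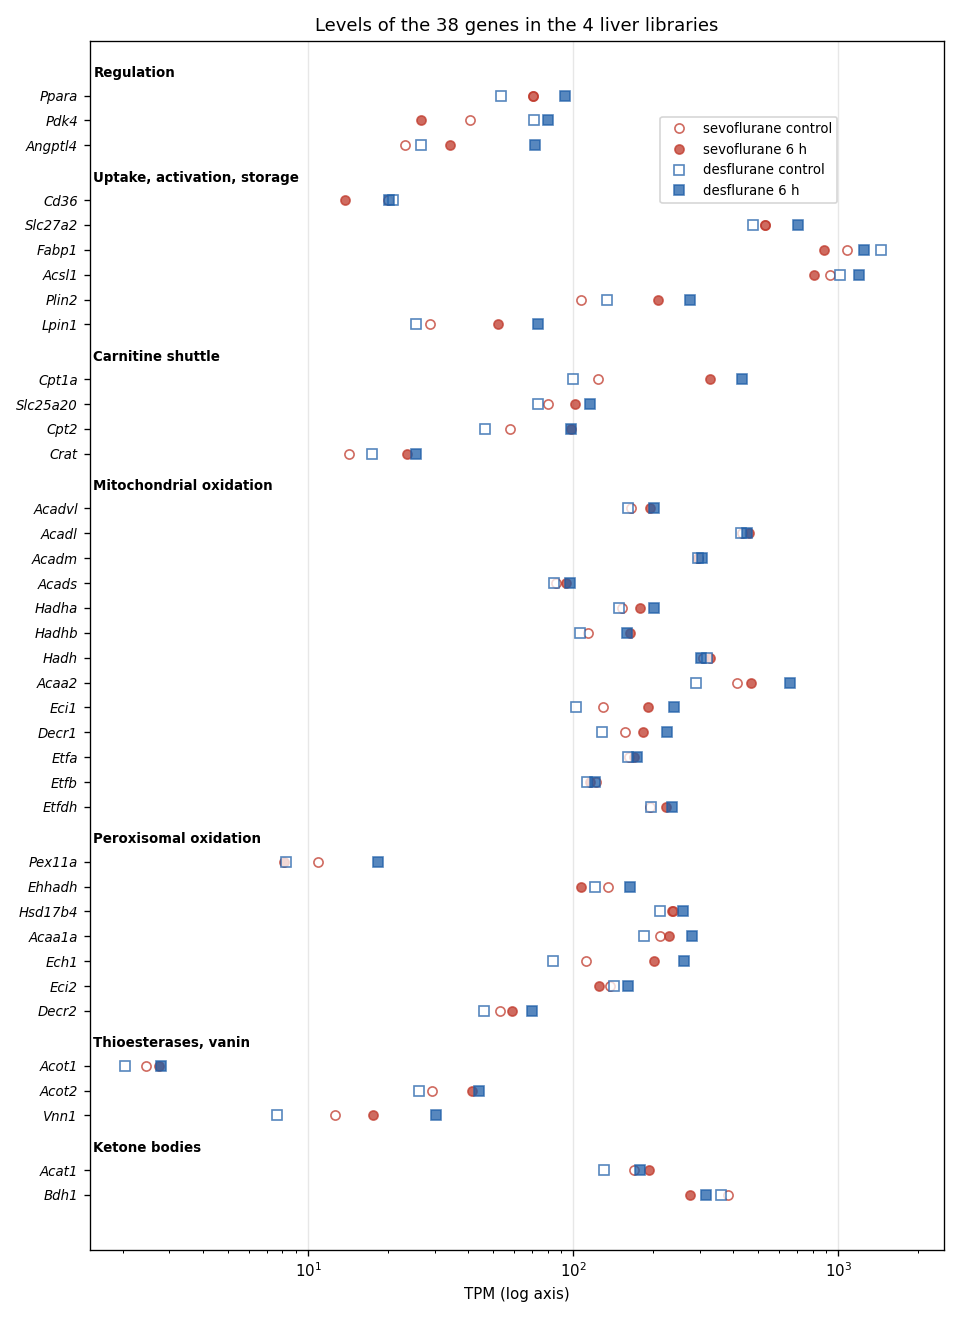
TPM values (log axis) of the 38 genes in the sevoflurane libraries (red circles) and the desflurane libraries (blue squares), open for controls and filled for 6 hours, ordered by step. The filled symbols lie to the right of the open ones for all 4 genes of the carnitine shuttle, whereas the symbols of the acyl-CoA dehydrogenases nearly coincide.

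Against the own controls, the carnitine shuttle was the step with the largest median difference with both agents. Against the other control its median log2 difference was 0.77 with sevoflurane and 0.81 with desflurane, where the regulation genes had 0.36 and 0.98. All 4 of its genes were higher in both 6 hour libraries than in both controls, as were the 3 thioesterase and vanin genes. *Cpt1a* (rn6 chr1:218569510-218629679) encodes the liver form of carnitine palmitoyltransferase 1, the enzyme of the outer mitochondrial membrane that commits long-chain fatty acids to oxidation and is inhibited by malonyl-CoA. Sevoflurane libraries held 124 TPM of *Cpt1a* in the control and 329 TPM at 6 hours, and desflurane libraries held 99.6 TPM and 435 TPM. The lower 6 hour value was 2.64-fold above the higher control, and *Cpt1a* was the only gene of the list with a gap of more than 2-fold, which 0.57% of all genes showed. The increase over the own control was 2.64-fold with sevoflurane and 4.37-fold with desflurane, and with exchanged controls it was 3.30-fold and 3.49-fold. The 6 hour desflurane liver was 1.32-fold above the 6 hour sevoflurane liver, and the desflurane control was 1.25-fold below the sevoflurane control. Its span over the 4 libraries was the widest of the list.

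*Cpt2* (chr5:127505646-127523016), which converts the carnitine esters back to acyl-CoA on the inner membrane, had TPM values of 57.5 and 97.9 with sevoflurane and 46.3 and 98.0 with desflurane, with the control given before the 6 hour value here and in the following. The 6 hour livers were nearly equal, and *Cpt2* was called higher with desflurane against its own, lower control but not against the other. After median-of-ratios scaling it was no longer called. *Slc25a20*, the carnitine-acylcarnitine translocase of the inner membrane, had 80.5 and 101.5 TPM with sevoflurane and 73.5 and 115 TPM with desflurane. *Crat*, which makes short-chain carnitine esters, had 14.2 and 23.7 TPM with sevoflurane and 17.4 and 25.6 TPM with desflurane. Neither gene reached 2-fold in any of the comparisons with a control. The summed level of the 4 genes was 277 and 552 TPM with sevoflurane and 237 and 674 TPM with desflurane, and most of this difference came from *Cpt1a*.

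The promoter of *Cpt1a* is shown because it belongs to the gene with the largest difference. The sequence runs from 250 bases before to 50 bases after the start of the gene (RefSeq, GRCr8 chr1:209995910-209996209, plus strand), and no letter is in capitals because the motif described next had no match in it.
*Cpt1a*: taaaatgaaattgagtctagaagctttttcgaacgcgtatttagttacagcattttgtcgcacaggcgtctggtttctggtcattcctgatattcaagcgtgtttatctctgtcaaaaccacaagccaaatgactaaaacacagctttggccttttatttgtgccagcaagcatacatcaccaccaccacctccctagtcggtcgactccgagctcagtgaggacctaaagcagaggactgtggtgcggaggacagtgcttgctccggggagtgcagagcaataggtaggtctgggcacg

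PPARα with RXR binds a direct repeat with 1 base between the repeats (DR1), searched here as AGGTCANAGGTCA on both strands with at most 2 mismatches at the 12 fixed letters. RefSeq promoters of 300 bases were found for 33 of the 38 genes, and 6 of the 33 (18.2%) held a match, compared with 3.77% of all 33469 promoters. The first share counts genes and the second counts promoters, of which a gene can have several, so they are not the same measure. No promoter was found for the called genes *Acaa2*, *Ech1*, and *Vnn1*, which were therefore not searched. None of the 6 genes was among those called with either agent, and a match is a description of letters, not a binding site. The 6 matches, which were added after the values were seen, are shown in capitals on the strand of the gene, with the position of their first base relative to the start of the gene. Matches that begin with TGACCT or a near form of it lie on the opposite strand.
*Fabp1*, -77: TGACCTATGGCCT
*Slc27a2*, -76: TGACCTTTGAGAT
*Etfa*, -154: TTACCTTTGCCCT
*Acadvl*, -17: AGGTCAGTGGTCA
*Crat*, -223: AGGACACCGGTCA
*Slc25a20*, 15: AGGTGAAAGGTCG

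Among the regulators on the list, desflurane and sevoflurane differed in their ratios to the own controls. *Ppara* itself had 70.7 TPM in both sevoflurane libraries, and 53.4 and 92.8 TPM in the control and 6 hour desflurane libraries. The 1.74-fold difference with desflurane became 1.31-fold against the sevoflurane control, and neither passed the limit. With sevoflurane the ratio to the desflurane control was 1.32, so for *Ppara* the agents were nearly equal with exchanged controls. *Angptl4* (chr7:18627814-18634043), a PPARα target whose secreted product inhibits lipoprotein lipase, had 23.3 and 34.4 TPM with sevoflurane and 26.7 and 71.7 TPM with desflurane. It was 2.68-fold higher with desflurane against the own control and 3.08-fold against the other, while with sevoflurane the ratios were 1.48 and 1.29. The 6 hour desflurane library was also 2.08-fold above the 6 hour sevoflurane library.

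*Pdk4* (chr4:30546772-30556774) encodes the pyruvate dehydrogenase kinase that spares glucose when fat is burned, and it was the gene of the list called lower in any comparison with a control. Its TPM values were 40.8 and 26.7 with sevoflurane and 71.4 and 80.3 with desflurane. The controls differed 1.75-fold, more than those of any other gene of the list, and the 6 hour livers differed 3.01-fold. Sevoflurane was below both controls, and the difference passed the limit only against the desflurane control.

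The genes of uptake, activation and storage included *Plin2* and *Lpin1*, which were higher at 6 hours with both agents, and abundant uptake and activation genes, which showed no common order. *Plin2* (chr5:104996999-105010799), the coat protein of hepatic lipid droplets, had 107 and 208 TPM with sevoflurane and 134 and 276 TPM with desflurane. Both 6 hour values were above both controls, and the ratio to the own control was 1.94 with sevoflurane, just below the limit, and 2.07 with desflurane, just above it. The call with desflurane was lost after median-of-ratios scaling and in FPKM values. *Lpin1* (chr6:41799748-41870046), a phosphatidate phosphatase that also acts as a coactivator of PPARα, had 28.8 and 52.1 TPM with sevoflurane and 25.6 and 73.5 TPM with desflurane. This was 1.81-fold and 2.87-fold higher than the own controls, and with exchanged controls both ratios passed the limit, at 2.03 and 2.56.

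*Slc27a2*, a very long-chain acyl-CoA synthetase and transporter, had 529 and 531 TPM with sevoflurane and 477 and 705 TPM with desflurane. *Acsl1*, the main long-chain acyl-CoA synthetase of the liver, had 928 and 808 TPM with sevoflurane and 1018 and 1196 TPM with desflurane. *Fabp1*, the liver fatty acid binding protein and the most abundant transcript of the list, had 1076 and 883 TPM with sevoflurane and 1453 and 1246 TPM with desflurane. For *Fabp1* each 6 hour liver was below its own control, and both desflurane libraries were above both sevoflurane libraries. The fatty acid translocase *Cd36* had 20.1 and 13.8 TPM with sevoflurane and 21.0 and 20.2 TPM with desflurane. *Cd36* is also expressed by macrophages and endothelial cells. The summed TPM of 10 macrophage markers was 793 and 478 with sevoflurane and 628 and 743 with desflurane. Against the own controls, all 10 were lower with sevoflurane and 8 of 10 higher with desflurane. Of all genes, 57.1% and 67% were higher in these comparisons. Against the exchanged controls, all 10 were lower with sevoflurane and 7 with desflurane, beside 3711 and 3272 of all 9136 genes. The part of macrophages in the values of *Cd36* was not tested. The row of *Cd36* also overlaps *RGD1565355* on the same strand over 168648 bases, so the value of *Cd36* is uncertain.

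**Figure D3:**
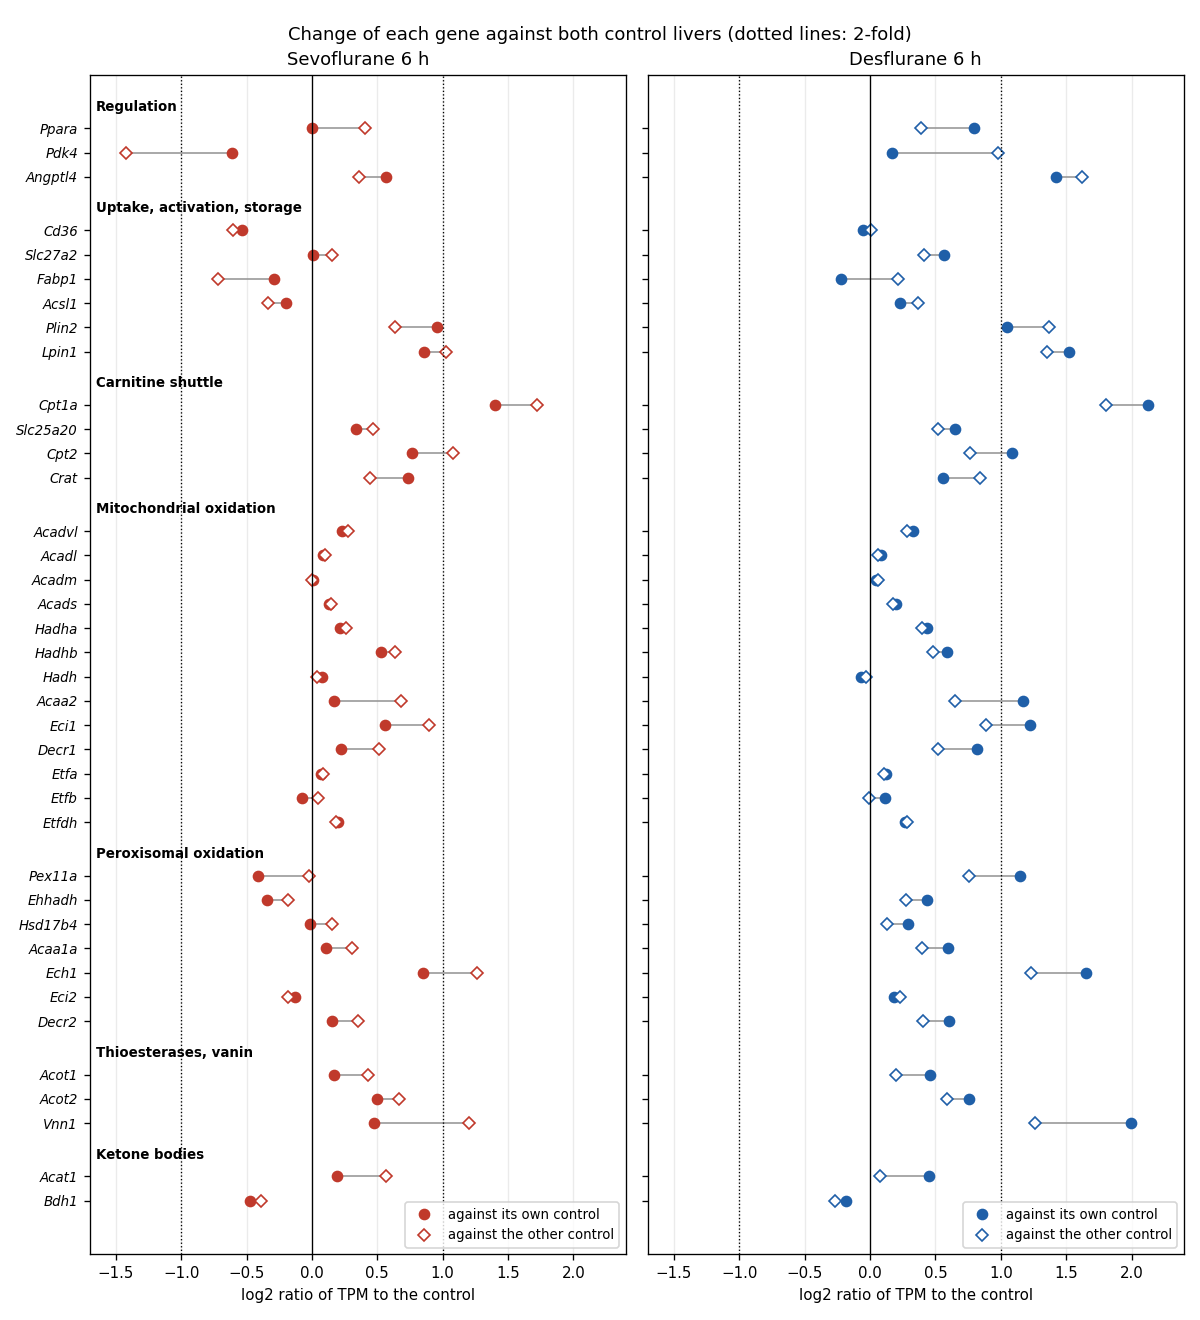
log2 ratio of TPM of each 6 hour library to its own control (filled circles) and to the control of the other agent (open diamonds), for sevoflurane (left) and desflurane (right), with lines joining the 2 values of each gene and dotted lines at 2-fold. *Cpt1a* lies beyond 2-fold with both agents and both controls, and *Pdk4* and *Vnn1* have some of the longest joining lines.

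The genes of mitochondrial oxidation itself differed less than those of the carnitine shuttle. The 13 genes of this step had a median log2 change of 0.17 with sevoflurane and 0.27 with desflurane, and *Acaa2* and *Eci1* were called higher with desflurane. *Acaa2* (chr18:70733872-70762395), the thiolase that releases acetyl-CoA, had 416 and 467 TPM with sevoflurane and 291 and 655 TPM with desflurane. *Eci1* (chr10:13797573-13810915), an enoyl-CoA isomerase needed for unsaturated fatty acids, had 129 and 191 TPM with sevoflurane and 103 and 239.6 TPM with desflurane. Both genes were higher in both 6 hour livers than in both controls. For both, the desflurane control was the lowest library, and against the sevoflurane control the ratios with desflurane were 1.57 for *Acaa2* and 1.85 for *Eci1*, below the limit. *Decr1*, the reductase for polyunsaturated chains, followed the same order at 157, 183, 128, and 226 TPM without passing the limit, where values are given in the order sevoflurane control, sevoflurane 6 hours, desflurane control, and desflurane 6 hours.

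The acyl-CoA dehydrogenases, which start each round of oxidation for chains of different length, lay within a narrow range. *Acadm*, for medium chains, was between 294 and 307 TPM in all 4 livers, a span of 1.04-fold and the smallest of the list. *Acadl*, for long chains, spanned 428 to 459 TPM, *Acads*, for short chains, 85.0 to 97.4 TPM, and *Acadvl*, for very long chains, 161 to 202 TPM. The row of *Acadm* lies within *St6galnac3* on the same strand, which had a mean of 1.31 TPM. The electron transfer flavoprotein, which accepts the electrons of these dehydrogenases, showed an equally narrow range, with *Etfa* between 160.5 and 175 TPM, *Etfb* between 112 and 122 TPM, and its oxidoreductase *Etfdh* between 195 and 237 TPM. None of these genes spanned more than 1.26-fold over the 4 libraries.

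*Hadha* and *Hadhb* encode the subunits of the mitochondrial trifunctional protein, which carries out the later steps for long chains. *Hadhb* had 114, 164, 106, and 159 TPM and *Hadha* had 153, 178, 149, and 202 TPM, in the same order of libraries. Both were higher in the 6 hour livers than in the controls, by less than 2-fold. *Hadh*, the dehydrogenase for shorter chains, was between 303 and 327 TPM and showed no such order. *Hadha* and *Hadhb* lie head to head, with 300 bases between their rows in the files (rn6), and their promoter windows in RefSeq share 200 bases. The *Hadha* window (GRCr8 chr6:31907551-31907850, plus strand) is shown because both genes were higher at 6 hours and their windows overlap, and capitals mark the part that also belongs to the *Hadhb* window.
*Hadha*: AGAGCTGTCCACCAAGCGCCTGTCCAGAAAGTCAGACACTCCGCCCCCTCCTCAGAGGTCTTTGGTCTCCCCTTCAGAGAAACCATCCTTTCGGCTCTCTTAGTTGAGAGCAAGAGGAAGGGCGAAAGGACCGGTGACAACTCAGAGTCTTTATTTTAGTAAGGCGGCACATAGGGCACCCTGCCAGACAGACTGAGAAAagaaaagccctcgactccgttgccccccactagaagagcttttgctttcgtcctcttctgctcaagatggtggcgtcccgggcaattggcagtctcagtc

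In the peroxisomal step, all 7 genes were higher than the own control with desflurane, with a median log2 change of 0.60, whereas 3 were higher and 4 lower with sevoflurane, with a median of -0.01. Against the other control, 4 were higher with sevoflurane and the median was 0.15, and *Acaa1a*, *Ech1*, and *Decr2* were above the own control with both agents. *Ech1* (chr1:87009798-87015996), a dienoyl-CoA isomerase of peroxisomes and mitochondria, had the largest differences of the step against the own controls with both agents. It had 111 and 201 TPM with sevoflurane and 83.6 and 262 TPM with desflurane, which were ratios of 1.81 and 3.13 to the own controls and of 2.41 and 2.35 to the exchanged controls. *Pex11a* (chr1:141474189-141481270), which promotes the division of peroxisomes, had 10.9 and 8.14 TPM with sevoflurane and 8.29 and 18.4 TPM with desflurane. The 6 hour desflurane liver was the highest by a wide margin, at 2.26-fold above the 6 hour sevoflurane liver, but the ratio to the sevoflurane control was 1.69.

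*Ehhadh*, the bifunctional enzyme of the peroxisomal pathway and a known PPARα target, had 136 and 107 TPM with sevoflurane and 121 and 164 TPM with desflurane. *Hsd17b4*, the other bifunctional enzyme, had 238 and 236 TPM with sevoflurane and 212 and 260.2 TPM with desflurane. The thiolase *Acaa1a* had 213 and 229 TPM with sevoflurane and 185 and 279.8 TPM with desflurane. For these 3 genes the 6 hour desflurane library was the highest of the 4, and none of the differences passed the limit. The isomerase *Eci2* (138, 125, 142, and 162 TPM) and the reductase *Decr2* (52.9, 58.9, 46.0, and 69.9 TPM) were also highest after 6 hours of desflurane. *Acaa1a* has a close paralog, *Acaa1b*, and reads of the pair could have been split.

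*Vnn1* (chr1:22614833-22625134), which encodes a pantetheinase and is a sensitive PPARα target, had 12.7 and 17.6 TPM with sevoflurane and 7.65 and 30.4 TPM with desflurane. The ratio to the own control was 1.39 with sevoflurane and 3.98 with desflurane, and with exchanged controls both ratios passed the limit and were nearly equal. The acyl-CoA thioesterases free fatty acids from coenzyme A. The mitochondrial *Acot2* had 29.4 and 41.5 TPM with sevoflurane and 26.2 and 44.2 TPM with desflurane, and the cytosolic *Acot1* was between 2.04 and 2.80 TPM. *Acot1* and *Acot2* are neighboring paralogs of similar sequence, so their separate values are uncertain. All 3 genes were higher in both 6 hour livers than in both controls.

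The ketone body genes on the list moved in different directions. *Acat1*, the mitochondrial acetoacetyl-CoA thiolase that opens ketogenesis and also serves in isoleucine breakdown, had 169 and 193 TPM with sevoflurane and 130.4 and 179 TPM with desflurane. *Bdh1* (chr11:72578925-72613924), which converts acetoacetate to 3-hydroxybutyrate, had 383 and 276 TPM with sevoflurane and 361 and 318 TPM with desflurane. *Bdh1* was the gene of the list for which both 6 hour livers were below both controls in TPM, with ratios to the own control of 0.72 and 0.88, both within 2-fold. The summed level of the 2 genes was 552 and 469 TPM with sevoflurane and 491 and 496 TPM with desflurane.

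When the 6 hour livers were compared directly, 34 of the 38 genes were higher with desflurane, as were 57.8% of all genes, with a median log2 difference of 0.27 beside 0.06 for all genes. Those called higher were *Pdk4*, *Angptl4*, and *Pex11a*, compared with 2.76% of all genes, and none was called lower, compared with 1.17%. In FPKM values the median of all genes was -0.15 between these livers, 21 genes of the list were above 0, and only *Pdk4* of the 3 was still called. Counted from the median of all genes, 29 genes were above it in TPM, in FPKM, and after median-of-ratios scaling. Relative to the own controls, 36 of the 38 genes had the larger ratio with desflurane, as did 59.4% of all genes. With exchanged controls this was so for 25 of the 38 genes and for 4871 of all 9136. The exceptions with the own controls were *Hadh* and *Crat*. Whether the agents differ was not tested, since each has 1 liver per state.

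The other genes of the same pathways were examined with a second list of 68 symbols, of which 63 were measured. With sevoflurane 4 of the 63 were called higher and 4 lower, compared with 2.23% and 3.3% of all genes. With desflurane 8 were called higher and 0 lower, compared with 2.79% and 1.48%. Against the exchanged controls, 7 were called higher with each agent, and 4 lower with sevoflurane and 0 with desflurane. The shares of all genes there were 2.52% higher and 2.59% lower with sevoflurane, and 2.84% and 1.58% with desflurane. No gene of this list was called with both agents against the own controls. The median of their log2 ratios to the own control was 0.04 for sevoflurane and 0.32 for desflurane. The most abundant genes of each group differed less than 2-fold with either agent, except *Phyh*, the phytanoyl-CoA hydroxylase, which had 935 and 1369 TPM with sevoflurane and 598 and 1500.2 TPM with desflurane. *Scp2*, the peroxisomal thiolase and sterol carrier, was between 517 and 546 TPM, and *Rxra*, the DNA-binding partner of PPARα, had 265 and 272 TPM with sevoflurane and 248 and 349 TPM with desflurane. *Creb3l3*, a fasting-induced transcription factor that acts with PPARα, had 318 and 378 TPM with sevoflurane and 247 and 423 TPM with desflurane. The bile acid and fatty acid CoA ligase *Slc27a5* had 303 and 327 TPM with sevoflurane and 237 and 439 TPM with desflurane. For *Acsl5*, *Echs1*, *Hsd17b10*, and the monocarboxylate carriers *Slc16a1* and *Slc16a7*, the ratios to the own control were between 0.784 and 1.23.

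The 16 called genes of this second list are named here after their values were seen. Desflurane was accompanied by higher expression of *Ppargc1a* (2.90 and 13.5 TPM), which encodes PGC-1α, and of its relative *Ppargc1b* (3.59 and 7.82 TPM). *Slc22a5*, the carnitine transporter of the plasma membrane, had 5.54 and 21.7 TPM with desflurane and 8.38 and 10.1 TPM with sevoflurane. *Hacl1*, which shortens phytanic acid after hydroxylation, had 61.3 and 358 TPM with desflurane and 100.7 and 86.5 TPM with sevoflurane. These 4 genes were at least 2.11-fold higher after 6 hours of desflurane than in either control. With desflurane, *Phyh* and the peroxisomal thioesterase *Acot4* (8.14 and 16.8 TPM) passed the limit against the own control only. With sevoflurane, both passed it against the desflurane control only, at 2.29 and 2.03.

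Against the own controls, different genes of lipolysis were called with each agent. *Pnpla2*, the adipose triglyceride lipase that starts lipolysis, had 21.8 and 61.0 TPM with desflurane and 26.0 and 44.4 TPM with sevoflurane, and *Lipe*, the hormone-sensitive lipase, had 2.47 and 6.08 TPM with desflurane and 3.07 and 5.46 TPM with sevoflurane. *G0s2*, the inhibitor of that first lipase, had 47.6 and 143 TPM with sevoflurane and 63.7 and 53.3 TPM with desflurane. *Abhd5*, its coactivator, had 50.2 and 24.1 TPM with sevoflurane and 42.3 and 27.2 TPM with desflurane, and was therefore below both controls in both 6 hour livers. *Plin5*, a droplet coat protein that contacts mitochondria, had 2.88 TPM after 6 hours of sevoflurane, 2.41-fold above its control. The calls of *Lipe* with desflurane, at a ratio of 1.98, and of *Abhd5* and *Plin5* with sevoflurane were lost against the other control. In that comparison *Pnpla2* was called higher with both agents, at 2.04 with sevoflurane and 2.34 with desflurane. *Lipe* was called there with sevoflurane, at 2.21. Both 6 hour livers were above both controls for *Pnpla2* and *Lipe*.

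The remaining genes called with sevoflurane were *Abcd2* (0.902 and 9.99 TPM), a peroxisomal fatty acid transporter, and *Slc16a6* (1.82 and 4.05 TPM), which exports ketone bodies, on the higher side. *Foxa2* (30.5 and 12.7 TPM), a transcription factor of fasting metabolism, *Acsm3* (25.7 and 10.9 TPM), a medium-chain acyl-CoA synthetase, and *Aacs* (5.43 and 2.63 TPM), which uses acetoacetate for synthesis, were on the lower side. Of these, *Slc16a6* and *Aacs* were not called against the other control. With desflurane, *Foxa2* had 44.5 and 22.9 TPM, a ratio of 0.514, and was thus below both controls in both 6 hour livers. *Acsm3* had 23.2 and 46.0 TPM with desflurane, a ratio of 1.98, also just within the limit. The desflurane values were 2.64 and 2.58 TPM for *Abcd2*, 2.90 and 4.78 TPM for *Slc16a6*, and 3.86 and 4.82 TPM for *Aacs*. *Acacb*, which makes the malonyl-CoA that inhibits carnitine palmitoyltransferase 1, and *Mlycd*, which removes it, were not called against the own controls. *Acacb* had 30.9 and 15.9 TPM with sevoflurane and 39.6 and 28.1 TPM with desflurane, and *Mlycd* had 47.4 and 64.3 TPM with sevoflurane and 42.3 and 63.5 TPM with desflurane. Both 6 hour livers were thus below both controls for *Acacb* and above both for *Mlycd*.

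**Figure D4:**
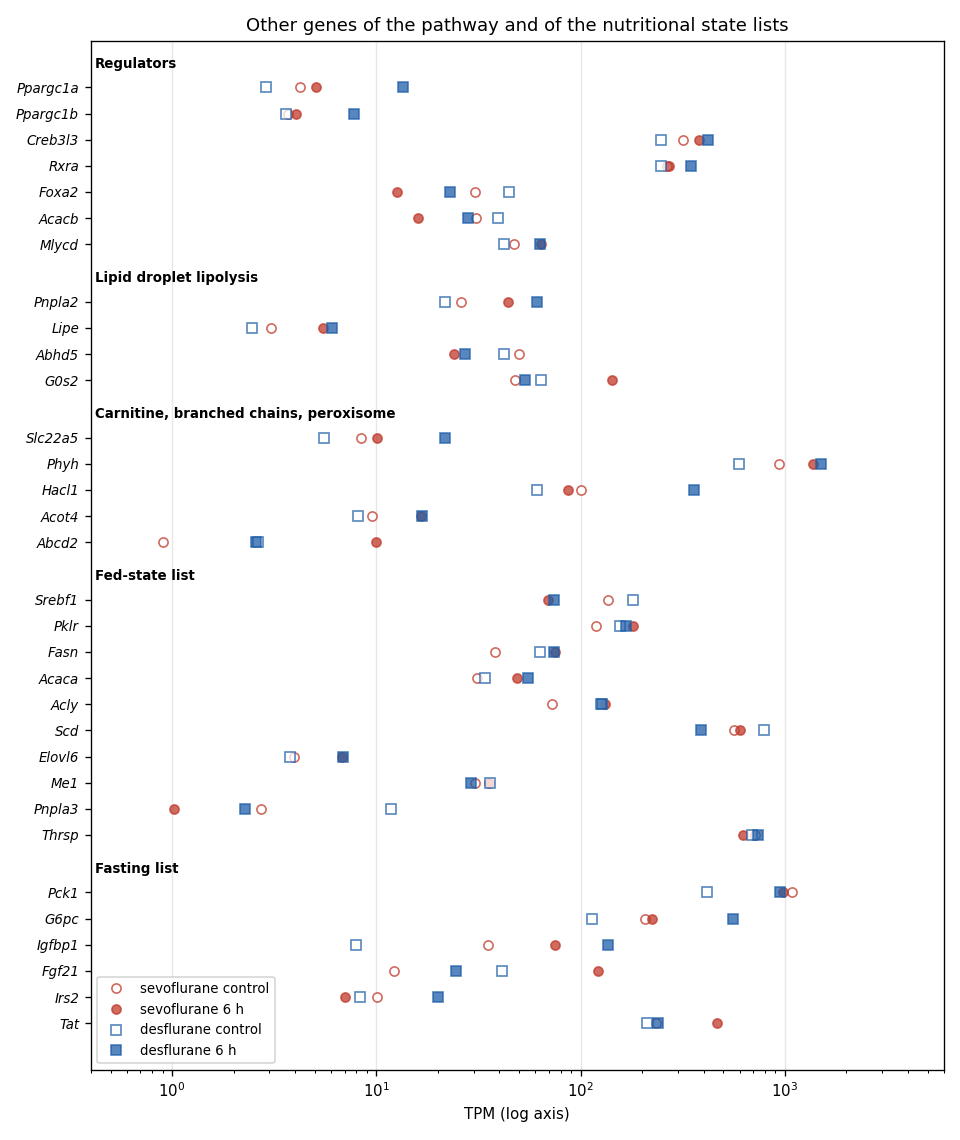
TPM values (log axis) of further genes of the pathway and of the fed-state and fasting lists in the sevoflurane libraries (red circles) and the desflurane libraries (blue squares), open for controls and filled for 6 hours. *Ppargc1a*, *Slc22a5*, *Hacl1*, and *G6pc* are highest after 6 hours of desflurane, and *G0s2*, *Abcd2*, *Fgf21*, and *Tat* are highest after 6 hours of sevoflurane.

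Genes that respond to feeding and fasting were measured beside the list, because time without food differed between the groups. Of 10 fed-state genes, which insulin induces, desflurane had 3 called lower and sevoflurane 1 against the own controls, but 0 and 2 against the exchanged controls. The shares of all genes called lower were 1.48% and 3.3% against the own controls, and 1.58% and 2.59% against the exchanged controls. Without regard to size, 6 of the 10 were above the own control with desflurane and 7 with sevoflurane, beside 67% and 57.1% of all genes. Their median log2 ratios to the own control were 0.04 and 0.42, so the list as a whole was not lower at 6 hours. *Srebf1*, the transcription factor of fatty acid synthesis, had 181 and 74.3 TPM with desflurane and 136 and 69.5 TPM with sevoflurane. *Pnpla3* (11.7 and 2.29 TPM with desflurane, 2.74 and 1.02 TPM with sevoflurane) and the desaturase *Scd* (789 and 389 TPM with desflurane, 567 and 605 TPM with sevoflurane) were the others called, and *Pnpla3* was 4.29-fold higher in the desflurane control than in the sevoflurane control. *Fasn*, *Acaca*, and *Elovl6*, enzymes of fatty acid synthesis and elongation, were above the own control with both agents.

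Of 7 fasting genes, desflurane had 5 called higher and sevoflurane 2 against the own controls, and each had 4 against the exchanged controls. The shares of all genes called higher were 2.79% and 2.23% against the own controls, and 2.84% and 2.52% against the exchanged controls. *G6pc*, the glucose-6-phosphatase, had 114 and 554 TPM with desflurane and 206 and 223 TPM with sevoflurane. *Pck1*, which opens gluconeogenesis, had 414 and 951 TPM with desflurane and 1079 and 980.4 TPM with sevoflurane, so the ratio with desflurane was 2.30 to the own control and 0.881 to the other. *Igfbp1* had 7.94 and 136 TPM with desflurane and 35.1 and 74.7 TPM with sevoflurane. *Irs2* and *Ppargc1a* were the other genes called with desflurane, *Irs2* against the own control only, and *Fgf21* was called with sevoflurane in addition to *Igfbp1*. *Fgf21* had 12.2 and 121 TPM with sevoflurane and 41.3 and 24.5 TPM with desflurane. It was the 1 fasting gene below the own control with desflurane, at a ratio of 0.593. With exchanged controls its ratios were 2.94 with sevoflurane and 2.01 with desflurane. The desflurane control lay on the fed side of the sevoflurane control for 6 of the 7 fasting genes, including *Pck1*, *G6pc*, and *Igfbp1*. *Fgf21* lay on the opposite side. The median log2 ratio of the desflurane to the sevoflurane control was -0.54 over the 7 fasting genes and 0.40 over the 10 fed-state genes. Of the fed-state genes, 8 had a ratio on the fed side and 2 on the opposite side. The part of nutritional state in the values of the oxidation genes was not tested.

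Marker genes of cell types were compared as a check of the tissue. All 12 hepatocyte markers were present, and their summed level was between 159105 and 177854 TPM, with median log2 changes of -0.07 with sevoflurane and 0.14 with desflurane. The 6 endothelial markers summed to between 184 and 216 TPM. Of 6 adipocyte markers, *Plin1* and *Lep* were at 0 in all libraries, *Adipoq* was at most at 0.0751 TPM, and *Cfd* made up nearly all of the summed 14.1 to 16.7 TPM. The 6 skeletal muscle markers summed to at most 0.497 TPM, with *Mb* at 0 throughout. Of 10 pancreatic acinar markers, the sevoflurane control held 40.5 TPM in sum and the other libraries between 0.521 and 3.45 TPM. Their part in the values of the sevoflurane control was not tested.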

How the data were processed

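Total RNA from rat liver was sequenced by the authors as paired-end 101 bp reads, 1 library per condition. Per the authors, trimming used sickle 1.33 (quality 30, length 20), mapping to rn6 used HISAT2 2.1.0, sorting used SAMtools 1.10, and abundance was estimated by StringTie 2.1.2 with the refGene annotation. The paper and the labels name different Illumina kits, both stranded. The strand setting of StringTie is not given in the sources used here. Deposited TPM values are a signal scaled so that assembled rows add up to 1000000 and the annotated rows to between 779824 and 813454. The deposited FPKM values were normalized by the authors for library size, and the deposited coverage (a signal per base) was not.

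Assembled rows and rows of 200 bp or shorter were left out, and TPM values were summed per gene symbol. Calls follow the rule in the paper's methods (TPM higher than 2 in the higher state, more than 2-fold), without a pseudocount. Background shares were calculated over genes with TPM values higher than 2 in at least 1 of the libraries compared. Aligned sequence was estimated per library by relating FPKM to coverage. No counting intervals were calculated, since the tables used hold no counts. The genes of the list were chosen with earlier results of these data known, as were the second list, the fed-state, fasting and marker lists. All genes of the list are named. Of the second list, the 2 most abundant of each group were named by rule, and others after their values were seen. Some genes are not reported here. Promoters were taken from RefSeq (GRCr8) by symbol, and no coordinates were converted between builds. Alternatives covered the control, the TPM and fold limits, a pseudocount of 1, scaling, FPKM, the length filter, and rows per symbol. Scripts ran under Python 3.11.15 with numpy 2.4.6, pandas 2.3.3, and matplotlib 3.10.9, and calling was checked on simulated data.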

Additional observations from a re-analysis of the deposited data

Results flagged for a closer look

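Of the genes on the list, 8 moved in opposite directions with the agents, each relative to its own control. With 1 library per state this contrast was not tested, and changes close to 0 differ in sign easily. The share of all genes with opposite directions was not calculated. The count of 8, and that of the second list below, therefore have no background and do not mark the lists as unusual. The log2 change with desflurane minus that with sevoflurane was 1.56 for *Pex11a*, 0.78 for *Pdk4*, and 0.78 for *Ehhadh*. It was 0.43 for *Acsl1*, 0.31 for *Eci2*, 0.31 for *Hsd17b4*, 0.18 for *Etfb*, and -0.15 for *Hadh*. Among the called genes of the second list, opposite directions were found for 5 genes, with differences of 2.77 for *Hacl1*, 2.22 for *Acsm3*, 1.37 for *Aacs*, -1.84 for *G0s2*, and -3.50 for *Abcd2*.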

How the results depend on the processing

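The choice of control changed several counts. With the control of the other agent, genes called higher numbered 5 with sevoflurane (1 with its own control) and 6 with desflurane (10 with its own), 1 gene was called lower with sevoflurane, and the median log2 changes were 0.29 and 0.40. With the mean of both controls, 2 genes were called higher and 1 lower with sevoflurane, and 7 higher with desflurane, without *Cpt2*, *Acaa2*, and *Pex11a*. A fold limit of 1.5 gave 6 higher and 1 lower with sevoflurane and 17 higher with desflurane, and a limit of 3 gave 0 and 3 higher. The share of all genes was not calculated for the mean of both controls or for these fold limits, so these counts have no background. The median with desflurane was 0.38 after median-of-ratios scaling and 0.40 without the 20 most abundant genes. The number of genes lower in both 6 hour livers was 4, 2, and 3 after these scalings and in FPKM, instead of 1, while the share of all genes was 22.7%, 19.4%, and 16.0% instead of 13.3%. In FPKM, between the 6 hour livers, 21 genes were higher with desflurane and 1 was called. Alternatives for counts over both 6 hour livers, between the agents and between controls were chosen after seeing the data. Of the changes of single genes, 872 kept their side of the limit, 20 lost the call, 20 gained it, and none of the called ones changed direction. The TPM limit, the pseudocount, the length filter, and the rows per symbol changed no count of called genes. No paired analysis was possible because the results come from no test, each agent having 1 library per state. No library was left out, since each comparison rests on a single pair. The precision of single values is unknown apart from the coverage.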
